A study of Homo sapiens with 8 samples.

Results

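RPL22 and RPL22L1 were the members described here, 2 of the 18417 genes that could be measured by a probe set with a single gene symbol. They were chosen by name: every probe set whose only symbol was RPL22 or RPL22L1 was taken, which gave 1 probe set for each gene and no probe set that either gene shared with another symbol. RPL22 lies on chromosome 1 and RPL22L1 on chromosome 3. The pair was proposed with the arrays labelled 24 h already in view, where RPL22 was known to be lower, so its values on those arrays are given as a description without a test.

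Total RNA was measured on 8 arrays, 2 for each of 4 groups. The groups were untreated A2780, a human ovarian carcinoma cell line, untreated A2780CP20, a subline of A2780 selected for cisplatin resistance, and A2780 cells given temsirolimus for 24 h or for 48 h. Temsirolimus is an ester of rapamycin that inhibits the kinase complex mTORC1, which controls the production of ribosomes. All cells were grown in RPMI medium with fetal bovine serum, the drug was dissolved in DMSO, and the labels do not give its dose or say whether the untreated cells received DMSO. A2780CP20 received no temsirolimus, and each line is an established cell line. The labels do not state whether replicates came from different cultures, and a p-value here measures no more than the spread of these arrays, which could be technical.

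RPL22, also called eL22, is an RNA-binding protein of the large ribosomal subunit that sits on the outside of the ribosome and is not required for translation as such. It was first known as a partner of small RNAs made by Epstein-Barr virus, and its gene is deleted or mutated in some leukaemias and in tumours with unstable microsatellites. RPL22L1 is a close paralog that can take its place in the ribosome. In mice without Rpl22 the paralog is raised, since the RPL22 protein binds and represses the RPL22L1 transcript, and the proteins have opposing roles in the formation of blood cells.

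The sequences before the start of each gene are shown because the values of the paralogs moved in opposite directions. Each is the 250 bases before the gene's start in RefSeq's annotation of GRCh38.p14, on the minus strand, at chr1:6199596-6199845 for RPL22 and chr3:170870196-170870445 for RPL22L1. Capitals mark matches to the motifs searched.
RPL22: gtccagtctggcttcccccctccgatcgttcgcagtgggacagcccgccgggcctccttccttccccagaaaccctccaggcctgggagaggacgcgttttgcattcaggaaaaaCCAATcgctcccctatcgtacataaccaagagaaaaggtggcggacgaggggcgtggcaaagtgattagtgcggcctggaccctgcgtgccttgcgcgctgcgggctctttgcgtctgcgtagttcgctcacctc
RPL22L1: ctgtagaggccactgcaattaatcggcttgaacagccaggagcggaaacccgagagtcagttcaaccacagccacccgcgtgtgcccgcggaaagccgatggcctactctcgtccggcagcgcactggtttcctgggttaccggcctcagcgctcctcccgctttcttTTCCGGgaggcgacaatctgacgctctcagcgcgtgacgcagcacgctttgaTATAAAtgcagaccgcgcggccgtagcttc

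The windows were similar in composition, with 61.6% G or C before RPL22 and 60.8% before RPL22L1, and they differed in the motifs they held. The motifs were the TATA box TATAAA, the CCAAT box CCAAT, the ETS core CCGGAA, the GC box GGGCGG and the E-box CACGTG, each read on both strands, and none of these letters overlapped another match. RPL22 held a CCAAT box that began 135 bases before the start, a motif found in 32% of 35116 promoter windows of the same length. RPL22L1 held a TATA box 30 bases before the start, found in 10.7% of the windows, and an ETS core on the opposite strand 82 bases before it, found in 14.5%. Neither window held the GC box, present in 42.6% of windows, or the E-box, present in 6.34%. The motifs were chosen after the sequences had been seen, and a match describes letters in a window only.

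The arrays labelled 24 h stood apart from the rest. Over all genes they correlated with each other at 0.997 and with the other 6 arrays at 0.95 to 0.952, while the other 6 correlated among themselves at 0.979 to 0.997. Fibroblast markers, with 9 of 9 measured and none dim on all arrays, had a mean log2 value of 9.43 to 9.45 on the untreated A2780 arrays, 9.14 to 9.15 in A2780CP20, 6.91 to 6.92 at 24 h and 9.40 to 9.42 at 48 h. By the limma test 8 of these 9 genes were lower at 24 h, 88.9% beside 15.3% of all genes. In A2780CP20 4 were lower and 1 higher, 44.4% and 11.1% beside 12.0% and 6.37% of all genes. There FAP changed by -0.88, LUM by -0.86, DCN by -0.79 and PDGFRA by -0.48, and COL1A1 by 0.38. Ovarian carcinoma markers, 10 of 10 measured, had means of 6.27 to 6.33 in untreated A2780, 6.31 to 6.37 in A2780CP20, 6.71 to 6.80 at 24 h and 6.10 to 6.15 at 48 h, near or below the array medians of 6.66 to 6.72. At 24 h 2 of the 10 were called higher, beside 14.9% of all genes. These were KRT18, by 2.94, and EPCAM, by 2.17. The other, dimmer probe set of KRT18 changed by 1.63 at 24 h and that of EPCAM by 3.49. The median change of the list at 24 h was -0.02 with 5 of 10 below 0. Leukocyte markers, 9 of 10 measured, had a list mean between 5.20 and 5.48 on every array, with PTPRC, MS4A1 and LYZ below the lower quartile throughout, and at 24 h PTPRC was higher by 0.52 and CD68 changed by -0.60. Endothelial markers, 7 of 7, had a list mean between 5.23 and 5.41, with EMCN below the lower quartile. The fibroblast list was thus lower at 24 h and, in part, in A2780CP20. In both groups RPL22 was also lower and RPL22L1 higher than in untreated A2780. KRT18 and EPCAM were higher at 24 h, while the carcinoma list as a whole had a median change of -0.02. The part of these levels in the results was not tested. Whether the arrays labelled 24 h hold the cells their labels name was not tested either. In bulk RNA, fewer cells that express a gene and less RNA per cell cannot be told apart.

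RPL22 was high in untreated A2780 and after 48 h of temsirolimus, and low in A2780CP20 and on the arrays labelled 24 h. Its log2 values on replicates 1 and 2 were 9.45 and 9.34 in untreated A2780, 8.47 and 8.27 in A2780CP20, 7.85 and 7.87 at 24 h, then 9.33 and 9.31 after 48 h. The arrays of A2780CP20 and of 24 h all lay below every array of the other groups. The order of the group means was 9.40 ± 0.08 (SD, n = 2) in untreated A2780, 9.32 ± 0.01 at 48 h, 8.37 ± 0.14 in A2780CP20 and 7.86 ± 0.01 at 24 h. The neighbours untreated A2780 and 48 h were separated by less than the spread of the untreated arrays, while the steps from 48 h to A2780CP20 and from A2780CP20 to 24 h, of 0.95 and 0.51, exceeded the 0.20 between the A2780CP20 arrays.

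RPL22L1 ran the other way, lowest in untreated A2780 and highest on the arrays labelled 24 h. Its log2 values were 7.16 and 7.18 in untreated A2780, 7.67 and 7.80 in A2780CP20, 9.59 and 9.64 at 24 h, then 7.48 and 7.76 after 48 h. The untreated arrays lay below the other 6, the arrays of 24 h lay above the other 6, and the arrays of A2780CP20 and 48 h overlapped. The group means rose from 7.17 ± 0.01 (SD, n = 2) in untreated A2780 through 7.62 ± 0.20 at 48 h and 7.74 ± 0.09 in A2780CP20 to 9.62 ± 0.04 at 24 h. The neighbours 48 h and A2780CP20 differed by 0.12, less than the gap of 0.28 between the 48 h arrays.

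**Figure D1:**
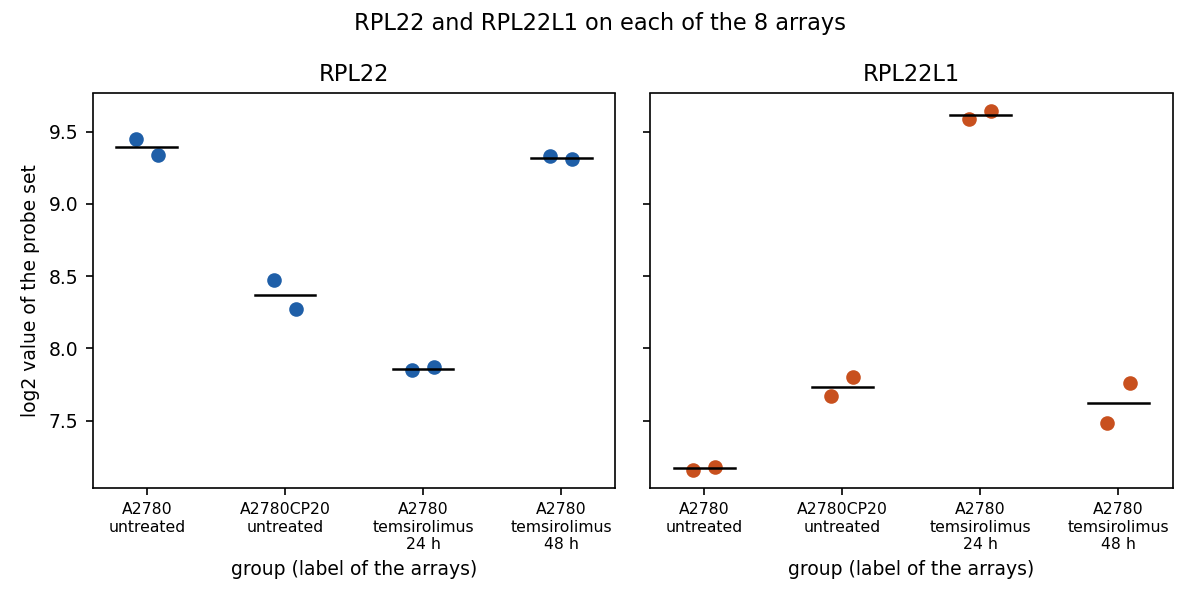
Log2 value of the RPL22 probe set (left) and the RPL22L1 probe set (right) on each of the 8 arrays, with groups along the x axis, points for arrays and lines for group means of 2 arrays. RPL22 is lowest and RPL22L1 highest on the arrays labelled 24 h, and levels of the 2 panels are not comparable with each other because probe sets differ in brightness.

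Comparison of the untreated lines addressed how the resistant subline differed from its parent. RPL22 was 2.03-fold lower in A2780CP20, a log2 change of -1.03 ± 0.10 (SE, n = 2 per group), with a 95% interval of -1.25 to -0.80. The difference passed the limma test, with an adjusted p of 0.0014 over all genes. Of the genes tested 12.0% were called lower in this comparison, and 103 genes, 0.559%, had a fall at least as large as that of RPL22. RPL22L1 was 1.48-fold higher, a log2 change of 0.57 ± 0.11 with an interval of 0.31 to 0.82 and a limma adjusted p of 0.0118. Here 6.37% of genes were called higher, and 315 genes, 1.71%, rose at least as far.

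Both calls held without the arrays labelled 24 h, where the limma adjusted p was 0.0048 for RPL22 and 0.0248 for RPL22L1. The call of RPL22L1 was lost without untreated A2780 replicate 1, at a log2 change of 0.56 and an adjusted p of 0.0688, and without untreated A2780 replicate 2, at 0.58 and 0.0697. Over all 18 alternatives the adjusted p of RPL22 ran from 0.000247 to 0.0244 and that of RPL22L1 from 0.00637 to 0.0697.

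After 48 h of temsirolimus RPL22 lay close to its untreated level. Its log2 change was -0.08 ± 0.10 (SE, n = 2 per group), with a 95% interval of -0.30 to 0.15 and a limma adjusted p of 0.829. RPL22L1 was 1.37-fold higher, a log2 change of 0.45 ± 0.11 with an interval of 0.19 to 0.71, and both 48 h arrays lay above both untreated arrays. This difference did not pass the limma test over all genes, with an unadjusted p of 0.00348 and an adjusted p of 0.211. Calls were few at 48 h, with 0.163% of genes higher and 0.0163% lower, and 216 genes, 1.17%, rose at least as far as RPL22L1. Without the arrays labelled 24 h the adjusted p was 0.882 for RPL22 and 0.358 for RPL22L1.

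The largest differences of both genes were those of the arrays labelled 24 h. RPL22 was 2.90-fold lower there than in untreated A2780, a log2 difference of -1.54 ± 0.10 (SE, n = 2 per group), and RPL22L1 was 5.45-fold higher, a difference of 2.45 ± 0.11. In this comparison 15.3% of genes were called lower and 14.9% higher, and 1.7% of genes fell as far as RPL22 while 0.657% rose as far as RPL22L1. RPL22 was 2.75-fold higher at 48 h than at 24 h, a log2 difference of 1.46 ± 0.10, and RPL22L1 was 3.99-fold lower, a difference of -2.00 ± 0.11, where 15.2% of all genes were called higher and 15.7% lower. All comparisons with untreated A2780 share the same untreated arrays, and both the times and the cells of the arrays rest on the labels, so these differences are not read as a course in time.

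The balance of the paralogs was followed as the log2 value of RPL22L1 minus that of RPL22 on each array, set to 0 at the mean of the untreated A2780 arrays. The untreated arrays lay at -0.07 and 0.07. The A2780CP20 arrays lay at 1.43 and 1.76, the arrays labelled 24 h at 3.97 and 4.0, and the 48 h arrays at 0.38 and 0.68. No group overlapped another in this measure, but each held only 2 arrays. How many other pairs of genes separate the groups in this way was not counted. The mean shifts of 1.59, 3.98 and 0.53 correspond to ratios of RPL22L1 to RPL22 that were 3.01-fold, 15.78-fold and 1.44-fold above that of untreated A2780.

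**Figure D2:**
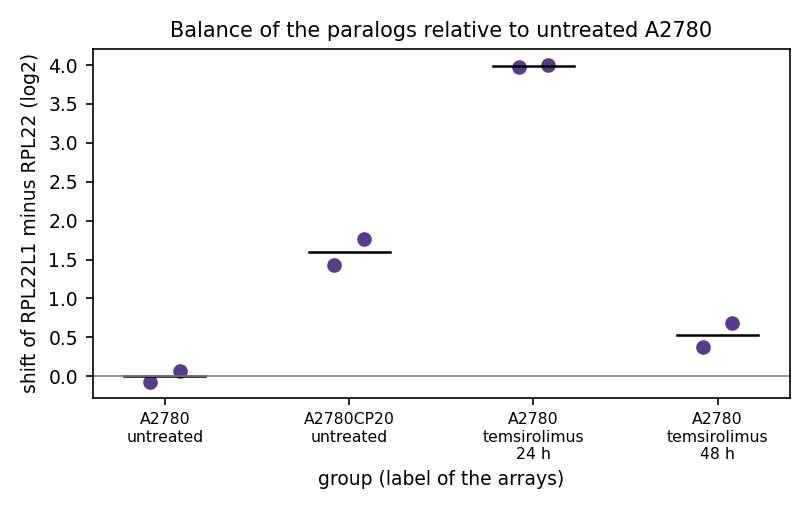
Shift of RPL22L1 minus RPL22 from its mean in untreated A2780 (log2, y axis) on each array, by group, with lines for group means of 2 arrays. The A2780CP20 arrays sit at 1.43 and 1.76 and the arrays labelled 24 h at 3.97 and 4.0, all above the untreated arrays at -0.07 and 0.07.

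By the brightest probe set of each gene, other ribosomal protein genes had smaller changes than either member of the pair in A2780CP20 and at 24 h. The 57 measured genes of the ribosome were 35 of 46 other large subunit genes and 22 of 32 small subunit genes. In A2780CP20 4 large and 2 small subunit genes were lower and none was higher by the limma test, with medians of -0.12 and -0.19 on the log2 scale, against 0.03 over all genes. The 6 lower genes were 10.5% of the 57, near the 12.0% of all genes called lower. Without the arrays labelled 24 h 2 large and 0 small subunit genes were called lower. By the brightest probe set of each gene, every one of the 57 changes lay between -0.56 and 0.51. RPL22 was thus below and RPL22L1 above all of them. RPL22L1, at 0.57 ± 0.11, exceeded RPL26, at 0.51 ± 0.31, by less than either standard error. Without untreated A2780 replicate 2 that order reversed, with RPL26 at 1.06 and RPL22L1 at 0.58. A dimmer probe set of RPS15 changed by 0.72, above RPL22L1, and a dimmer one of RPL31 by -0.69.

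Among these genes the largest falls in A2780CP20 were those of RPL27A at -0.56 ± 0.13, RPS29 at -0.47 ± 0.12 and RPL7A at -0.43 ± 0.11, with limma adjusted p of 0.0201, 0.0336 and 0.0268. These calls were lost in 5, 8 and 7 of 18 alternatives, with adjusted p up to 0.11, 0.179 and 0.169, and another probe set of RPL27A had a change of 0.45. Leaving out untreated A2780 replicate 1 alone gave 0.0986 for RPL27A, 0.179 for RPS29 and 0.0521 for RPL7A. The largest positive values, none past the test, were 0.51 ± 0.31 for RPL26, 0.27 ± 0.11 for FAU and 0.27 ± 0.17 for RPL19. RPL26 had untreated values of 8.60 and 9.71, and without untreated A2780 replicate 2 it was called higher in A2780CP20, at 1.06 with an adjusted p of 0.0364, and at 24 h, at 1.22 with 0.00566.

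On the arrays labelled 24 h 13 large subunit genes were lower and 1 was higher, and 4 small subunit genes were lower and 1 higher, with a median of -0.17 in each list against 0.01 over all genes. The genes called lower were 29.8% of the 57, beside 15.3% of all genes, and those called higher were 3.51%, beside 14.9%. RPL31 fell by 0.98, RPL29 by 0.79 and RPL13 by 0.72 on the log2 scale, with limma adjusted p of 0.000135, 0.00099 and 0.000332. A dimmer probe set of RPL13 changed by -0.42 and was not called (adjusted p 0.0763). None fell by as much as 1, so that the -1.54 of RPL22 lay below all 57 genes. RPL10 was higher by 0.42 ± 0.13 and RPS21 by 0.35 ± 0.10 (adjusted p 0.0417 and 0.0248), calls that were lost in 7 and 4 of 17 alternatives, among them each of the fits without untreated A2780 replicate 1 (0.177 and 0.124). RPL26 had a value of 0.67 ± 0.31 and was not called (0.151).

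At 48 h none of the 57 genes was called, and the medians were 0.07 for the large and 0.04 for the small subunit against -0.03 over all genes. The lowest values were -0.13 for RPS14, -0.09 for RPS29 and -0.07 for RPL10, and the highest were 0.80 for RPL26, 0.32 for RPL17 and 0.27 for RPL41. The 0.45 of RPL22L1 was thus exceeded only by RPL26, whose untreated arrays read 8.60 and 9.71.

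**Figure D3:**
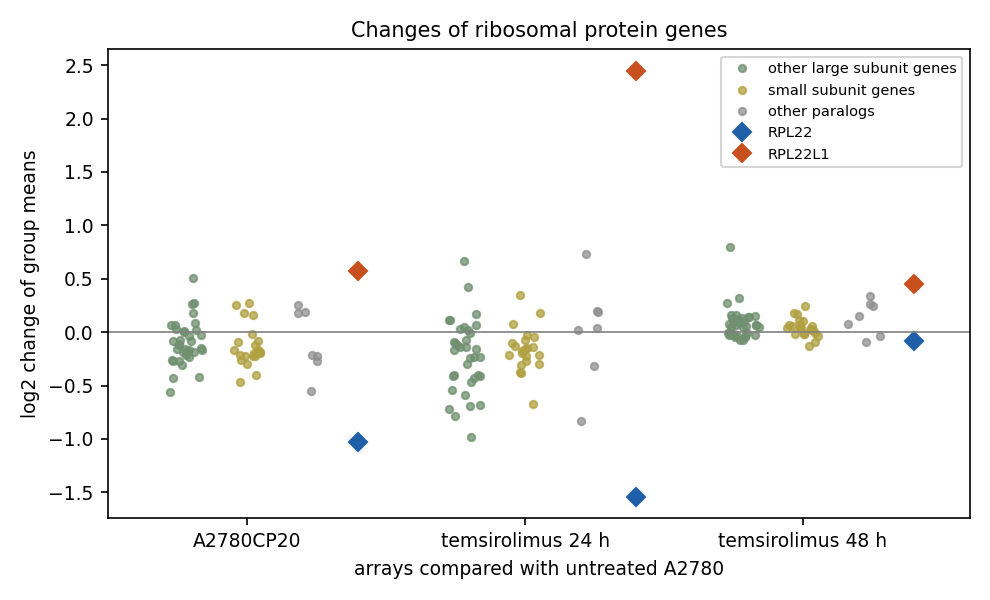
Log2 change of group means from untreated A2780 (y axis) for RPL22, RPL22L1, 35 other large subunit genes, 22 small subunit genes and 7 other paralogs (points), in 3 comparisons along the x axis. The diamonds of RPL22 (-1.03 and -1.54) and RPL22L1 (0.57 and 2.45) lie outside the range of the other genes, each shown by its brightest probe set, in A2780CP20 and at 24 h. In A2780CP20 RPL26, at 0.51, lies close to RPL22L1.

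Several other ribosomal protein genes have paralogs, and all 7 listed here were measured. RPL39L, a paralog of RPL39 that is most abundant in the testis, was higher at 24 h by 0.73 ± 0.12 (limma adjusted p 0.00231), with values of 7.51 and 7.60 in untreated A2780 and 8.33 and 8.23 at 24 h. RPS27L, a paralog of RPS27 that is a p53 target, was lower at 24 h by 0.83, a change of -0.83 ± 0.13 (0.00142), and in A2780CP20, where it changed by -0.55 ± 0.13 (0.0209). The latter call was lost in the fit of only the 2 groups (0.0824) and without untreated A2780 replicate 1 (0.0602) or 2 (0.137). RPL7L1, RPL3L, RPL10L, RPL26L1 and RPL36AL were not called in any comparison with untreated A2780, with values between -0.32 and 0.26. In 8 of 17 alternatives RPL7L1 was called lower at 24 h. In A2780CP20 RPL7L1 was called lower without A2780CP20 replicate 2, at -0.34 (0.0293), and RPL39L without A2780CP20 replicate 1, at -0.45 (0.024).

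In 5 other pairs both genes were measured, and in A2780CP20 and at 24 h the paralog moved relative to its partner by less than in the pair. The change of the paralog minus that of its partner ran from -0.34 to 0.45 in A2780CP20, from -0.62 to 0.59 at 24 h and from -0.56 to 0.29 at 48 h, against 1.59, 3.98 and 0.53 for RPL22L1 and RPL22. At 48 h the -0.56 of RPL26L1 and RPL26 was the larger in size. RPL3 and RPL3L at 24 h, with -0.40 and 0.19, came nearest to a divergence of the same kind. RPL36A and RPL39 were not analysed here, so their paralogs have no partner.

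Free ribosomal proteins can bind MDM2, the ligase that degrades p53, and 8 of 9 genes of this axis were measured. In A2780CP20 1 was lower and 0 higher, at 24 h 2 were lower and 1 higher, and at 48 h 0 were called, with medians of -0.09, 0.00 and 0.15. The share called lower in A2780CP20 was 12.5%, near the 12.0% of all genes. Shares at 24 h were 25% lower and 12.5% higher, beside 15.3% and 14.9% of all genes. The 25% rests on 2 genes of 8. ZMAT3, an RNA-binding p53 target, had values of 8.66 and 8.71 in untreated A2780, 8.27 and 8.31 in A2780CP20, 10.15 and 10.26 at 24 h, then 8.89 and 8.88 after 48 h. It was higher at 24 h by 1.52 ± 0.09 (limma adjusted p 3.77e-06) and lower in A2780CP20 at -0.40 ± 0.09 (0.018), a call lost without untreated A2780 replicate 1 (0.0729) or 2 (0.108). CDKN1A, the cell cycle inhibitor p21, moved the other way at 24 h, with a change of -0.50 ± 0.09 (0.00315). ZMAT3 and CDKN1A, both targets of p53, thus changed in opposite directions at 24 h.

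RPL11, which binds MDM2, changed at 24 h by -0.43 ± 0.10 (limma adjusted p 0.0122), a call lost without untreated A2780 replicate 1 (0.0732) or 2 (0.0521) and without 24 h replicate 2 (0.101). RPL5, its partner in that complex, was not called and had a value of 0.02 in A2780CP20, 0.07 at 24 h and 0.16 at 48 h. MDM2 had values of -0.14, -0.07 and 0.02, and MDM4, the other main inhibitor of p53, -0.43, -0.11 and 0.18, none past the test. Without A2780CP20 replicate 2 MDM4 was called lower in A2780CP20, at -0.67 with an adjusted p of 0.0112.

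Among 7 genes linked to RPL22 in knockout animals or in tumours, LIN28A stood out. LIN28A, which blocks the maturation of let-7 microRNAs, had values of 9.56 and 9.65 in untreated A2780, 10.11 and 10.31 in A2780CP20, 6.24 and 6.23 at 24 h, then 9.81 and 9.76 after 48 h. It was higher in A2780CP20 by 0.61 ± 0.10 (limma adjusted p 0.00585) and lower at 24 h with a change of -3.37 ± 0.10 (6.73e-08). Its other, dimmer probe set changed by 0.25 and -2.26. Its paralog LIN28B, which is raised in mouse T cell leukaemia lacking Rpl22, had values of -0.05, -0.25 and 0.10 in A2780CP20, at 24 h and at 48 h, none past the test. The lipoxygenase ALOX12 had 0.25, 0.40 and -0.04, SMAD1 -0.33, 0.17 and 0.07, and UBAP2L 0.16, 0.09 and 0.05, and none of these was called. Under some alternatives this changed. ALOX12 was called higher at 24 h with median centring (limma adjusted p 0.0457) and in the fit of only the 2 groups (0.0278). In the latter fit LIN28B was called lower at 24 h (0.0434). Without A2780CP20 replicate 1 the change of UBAP2L in A2780CP20 was 0.35. SMAD1 was called lower in A2780CP20 without its replicate 2, at -0.52 with 0.00781. In this list of 7, 1 gene was higher in A2780CP20, 1 was lower at 24 h and 0 were called at 48 h. A share of 14.3% higher in A2780CP20 stood beside 6.37% of all genes. The 14.3% lower at 24 h was near the 15.3% of all genes.

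SMAD2, a mediator of TGF-beta signals whose transcript is spliced under the control of Rpl22 and Rpl22l1 in zebrafish, had 2 probe sets that disagreed. The brighter, which stood for the gene, read 9.96 and 10.00 in untreated A2780, 9.85 and 9.90 in A2780CP20, 9.89 and 9.98 at 24 h, then 10.15 and 10.10 after 48 h, and was not called in any comparison with untreated A2780. The other read 9.81 and 9.61 in untreated A2780, 8.86 and 8.97 in A2780CP20, 8.57 and 8.60 at 24 h, then 9.37 and 9.55 after 48 h. In the fit of every probe set the latter was lower in A2780CP20, with a change of -0.80 ± 0.11 (limma adjusted p 0.00351), and at 24 h, with -1.13 ± 0.11 (0.000103), and was not called at 48 h, with -0.25 ± 0.11 (0.452). Its groups took the same order as those of RPL22. The exons covered by each probe set were not analysed here, and the second probe set was singled out after its values were seen.

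The genes next to RPL22 and RPL22L1 were examined for shared changes of a region, over the 10 nearest measured protein-coding genes on each side. Around RPL22 the median change was 0.17 in A2780CP20, 0.08 at 24 h and 0.01 at 48 h. In A2780CP20 1 of the 20 genes was higher and 0 were lower, 5% and 0% beside 6.37% and 12.0% of all genes. Without the arrays labelled 24 h 0 were called higher. At 24 h 5 were higher and 1 was lower, 25% and 5% beside 14.9% and 15.3% of all genes. The latter was RNF207, the immediate neighbour on 1 side, whose product is a ring finger protein of heart muscle. It read 9.09 and 9.05 in untreated A2780, 9.02 and 8.95 in A2780CP20, 7.23 and 7.44 at 24 h, then 8.71 and 8.82 after 48 h, a change at 24 h of -1.74 ± 0.10 (limma adjusted p 4.24e-06), and its other probe set changed by -0.99 there. In A2780CP20, where RPL22 fell, RNF207 had -0.09 ± 0.10 and was not called (0.604). CHD5, a chromatin remodeller on the other side, had 0.29 in A2780CP20 and was higher at 24 h by 0.39 ± 0.12 (0.0417), a call lost in 7 of 17 alternatives and without untreated A2780 replicate 1 at 0.147.

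Around RPL22L1 the median change was -0.04 in A2780CP20, 0.09 at 24 h and -0.07 at 48 h. Of the 20 genes 1 was higher and 3 were lower in A2780CP20, and 2 were higher and 2 lower at 24 h. Shares of 5% and 15%, and of 10.0% and 10.0%, were about those of all genes, 6.37% and 12.0% in A2780CP20 and 14.9% and 15.3% at 24 h. EIF5A2, an isoform of translation factor eIF5A that lies next to RPL22L1, read 7.23 and 7.34 in untreated A2780, 6.90 and 7.62 in A2780CP20, 8.39 and 8.37 at 24 h, then 7.64 and 7.72 after 48 h. It was higher at 24 h by 1.10 ± 0.20 (limma adjusted p 0.00309), and in A2780CP20 its arrays lay on both sides of the untreated arrays, with a change of -0.03 ± 0.20 that became -0.39 (adjusted p 0.024) without A2780CP20 replicate 2. SLC7A14 on the other side read 4.81 and 4.72 in untreated A2780 and 5.41 and 5.16 in A2780CP20. These values were near the lower quartiles of the arrays, 5.03 to 5.13. SLC7A14 was called higher in A2780CP20 at 0.52 ± 0.11 (0.0162), a call lost in the fit of only the 2 groups (0.071). It was also lost without untreated A2780 replicate 1 or 2, at changes of 0.57 and 0.48. Another probe set of SLC7A14 changed by 0.12 in A2780CP20. RNF207 and EIF5A2 were the only neighbours called with a change of at least 1 on the log2 scale in a comparison with untreated A2780.

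**Figure D4:**
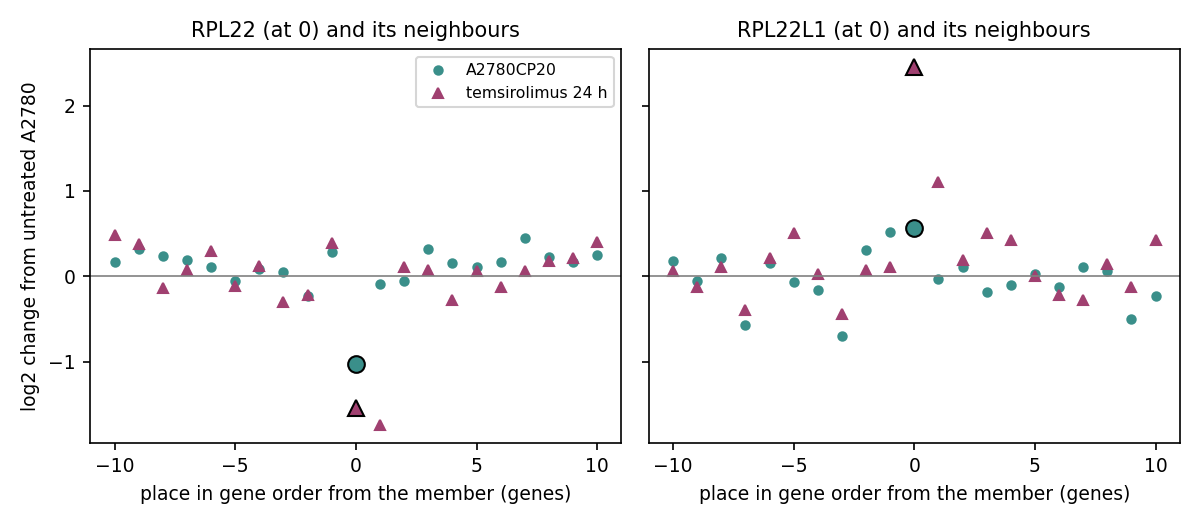
Log2 change from untreated A2780 (y axis) of RPL22 (left, at 0) and RPL22L1 (right, at 0) and of the 10 nearest measured protein-coding genes on each side, by place in gene order (x axis), in A2780CP20 (circles) and at 24 h (triangles). Beside RPL22 RNF207 reaches -1.74 at 24 h, and beside RPL22L1 EIF5A2 reaches 1.10.

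Genes with a profile most like that of each member were found by the root mean square difference of log2 values over the 8 arrays, with every gene centred on its untreated A2780 mean. Nearest to RPL22 were IFIT1, an interferon-induced antiviral protein, at 0.09, NDNF and CPE at 0.12, RBMS1 at 0.13 and RCBTB2 at 0.14. IFIT1, on chromosome 10, changed by -1.03 in A2780CP20, -1.61 at 24 h and -0.17 at 48 h. Another probe set of RBMS1 changed by -0.22 in A2780CP20 where the one used changed by -0.91. Nearest to RPL22L1 were MARK1, a kinase of microtubule-associated proteins, at 0.18, FERMT1 at 0.19, PSMB9 and L3MBTL4 at 0.25 and TNFRSF10D at 0.26. MARK1 changed by 0.39 in A2780CP20, 2.26 at 24 h and 0.40 at 48 h. These genes were chosen for their likeness, which is a description over 8 arrays that share groups and untreated controls.

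Whether the RPL22 probes also read its processed copies was not tested. RefSeq's gene table names 22 pseudogenes of RPL22 and 0 of RPL22L1, and 0 of them had a named probe set on the array. The level of RPL22 is therefore uncertain to the extent that such copies are transcribed. Copies of the other ribosomal protein genes were not counted.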

How the data were processed

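Total RNA from 8 samples was hybridised to Affymetrix Human Gene 1.0 ST arrays, 1 sample per array. The values deposited by the authors are log2 intensities by their range, 1.8 to 14.99 with medians of 6.66 to 6.72. The sources used here do not give the log base, background correction, normalization or summary of probes, and Partek is named, with no version, in the submitters' processing notes. A wrong log base would rescale every fold change. Values have 2 decimals, and the number of arrays limits the precision.

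Of 33297 probe sets 19460 had 1 gene symbol in the platform annotation, 1754 had several and 12083 were unnamed here. Each gene was represented by its brightest probe set on average, which left 18417 genes, of which 18389 matched RefSeq's gene table (GRCh38.p14), used for names, chromosomes and gene order. Groups and replicate numbers came from the titles. limma 3.58.1 in R 4.3.3 fitted 1 coefficient per group to all 8 arrays and moderated the variances by empirical Bayes (4 residual and 4.48 prior degrees of freedom). Tests were two-sided, p-values were adjusted over all genes by Benjamini and Hochberg's method, and a gene was called under 0.05. The test was tested on simulated data. Dim means below the lower quartile of every array.

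The members and lists were chosen with earlier results of these data known. The rule for names took both members, the paralogs, the p53 axis and the RPL22-linked genes, the 3 largest rises and falls of ribosomal proteins in each comparison with untreated A2780, adjacent neighbours and neighbours called with a change of 1, and the 5 nearest profiles of each member leaving out Y-linked genes, unnamed loci and small RNAs. Alternatives were quantile normalization, median centring, no dimmest 25% of genes, the mean of a gene's probe sets, every probe set, other priors, a replicate block, only the groups compared, no 24 h arrays and each array left out. Protein sequences were not used here.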

Additional observations from a re-analysis of the deposited data

Results flagged for a closer look

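For 20 of the named paralogs, genes of the p53 axis, RPL22-linked genes, ribosomal proteins and adjacent neighbours, the changes from untreated A2780 at 24 h and at 48 h differed by limma's test of 48 h against 24 h. Of all genes 15.2% were called higher and 15.7% lower in that test. Many of the ribosomal proteins were named for their large changes, so the count of 20 is not a rate. LIN28A was higher at 48 h than at 24 h by 3.55 on the log2 scale (adjusted p 4.8e-08), with changes from untreated of 0.18 at 48 h and -3.37 at 24 h. RNF207 was higher by 1.43 (1.47e-05), with -0.31 and -1.74, RPS27L by 1.17 (0.000192), with 0.34 and -0.83, RPL11 by 0.56 (0.00303), with 0.14 and -0.43, RPL7L1 by 0.40 (0.0203), with 0.08 and -0.32, LIN28B by 0.34 (0.0273), with 0.10 and -0.25, and CDKN1A by 0.29 (0.0373), with -0.21 and -0.50. The difference was negative for ZMAT3, at -1.32 (9.19e-06), with 0.20 and 1.52, for RPL39L, at -0.81 (0.00124), with -0.09 and 0.73, for EIF5A2, at -0.70 (0.0259), with 0.40 and 1.10, and for ALOX12, at -0.44 (0.0464), with -0.04 and 0.40.

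Of the 57 ribosomal protein genes 24 were higher at 48 h than at 24 h and 2 were lower. These were 42.1% and 3.51%, beside 15.2% and 15.7% of all genes. Those named were RPL31 at 0.95 (adjusted p 0.000159), RPL29 at 0.84 (0.000673), RPL13 at 0.77 (0.000226), RPL27A at 0.65 (0.00534), RPS29 at 0.59 (0.00693), RPL41 at 0.41 (0.00707) and RPL7A at 0.37 (0.0297), and, lower, RPL10 at -0.49 (0.0215) and RPS21 at -0.29 (0.0487). Among the 20 neighbours of RPL22 2 were higher and 3 lower at 48 h, and among those of RPL22L1 3 were higher and 3 lower.

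Several of these calls were lost under an alternative. ALOX12 lost its call in 8 of 16 alternatives, with adjusted p up to 0.283, among them quantile normalization (0.115) and only the 2 groups (0.0826). RPS21 lost it in 8 of 17 (up to 0.228), CDKN1A in 7 (up to 0.203), with quantile normalization among them (0.0607), RPL7A, RPL7L1 and EIF5A2 in 4 (up to 0.181, 0.113 and 0.121), LIN28B in 3 (up to 0.194), RPL10, RPL41 and RPS29 in 2 (up to 0.143, 0.494 and 0.0564), and RPL13 and RPL27A in 1 (0.114 and 0.0503). The 0.494 of RPL41 and the 0.114 of RPL13 came from the fit of every probe set. There they belong to a dimmer probe set of each gene, not to the one used. The arrays labelled 24 h stand apart from all others, and 5702 of 18417 genes were called in this comparison.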

How the results depend on the processing

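For the pair, 134 of 140 values under the alternatives kept their direction and their side of the threshold, or moved by less than the spread between replicates. Many of these values could not move, so the count is no measure of stability. In comparisons with the arrays labelled 24 h only the difference of group means was judged. Other priors, the block, the dim filter, the choice of probe sets and the removal of arrays outside the comparison leave that difference unchanged. The call of RPL22L1 in A2780CP20 was lost without untreated A2780 replicate 1 or 2, and its log2 change ran from 0.50 to 0.63 over the fits that left out an array. With quantile normalization RPL22 changed by -1.47 at 24 h and by 1.38 from 24 h to 48 h, with median centring the latter was 1.45, and RPL22L1 changed by 2.50 at 24 h with median centring. The cause of these shifts was not tested. With 1 array left out, RPL22 ran from -1.13 to -0.93 in A2780CP20 and from -0.13 to -0.02 at 48 h, and RPL22L1 from 2.42 to 2.47 at 24 h and from 0.31 to 0.59 at 48 h; a group left with 1 array was assumed to vary like the others. At 48 h the adjusted p ran from 0.635 to 0.996 for RPL22 and from 0.125 to 0.749 for RPL22L1, so neither was called under any of 18 alternatives. The deviations of arrays with the same replicate number correlated at 0.002 to 0.181, and with a replicate block the adjusted p was 0.00232 for RPL22 and 0.00953 for RPL22L1 in A2780CP20 and 0.797 and 0.168 at 48 h. The block gave 3555, 5642 and 35 calls in A2780CP20, at 24 h and at 48 h, against 3388, 5551 and 33. Over the alternatives these counts ran from 974 (without untreated A2780 replicate 2) to 5543 (without A2780CP20 replicate 2), from 3621 to 6895 and from 4 to 68. Large subunit genes called lower ran from 0 to 8 in A2780CP20 and from 7 to 17 at 24 h, and small subunit genes from 0 to 9 and from 1 to 8. Signal over background is unknown without detection calls.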
